A study of Mus musculus with 16 samples.

Results

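The 34 genes described here mark dendritic cells, macrophages, granulocytes and CD4 T cells, and were measured in RNA of cells sorted as CD8 T cells from mouse tumours. They comprise 16 genes of plasmacytoid dendritic cells, the dendritic growth factor receptor Flt3, 3 adaptor and oxidase genes that several innate cells share, 5 genes of conventional dendritic cells, 8 macrophage or granulocyte genes, and Cd4. All 34 have a row among the 24028 genes of the deposited count table, 32 are among the 17414 genes that passed the filter on low counts, and 26 averaged at least 10 CPM over the 16 libraries. CPM are a gene's counts scaled to a common library total, with libraries made comparable by TMM, a trimmed mean of ratios. C1qa and C1qb did not pass the filter. The genes were chosen by measured values of these same libraries: an earlier look had found plasmacytoid transcripts lower with entinostat than with vehicle on both days. The values under entinostat and vehicle are therefore given as a description, with no p.

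Tumours grew from TS/A cells, a mouse mammary adenocarcinoma line, placed in the second mammary pad of BALB/c mice. All animals received a daily dose from day 7 onwards, either vehicle or 20 mg/kg of entinostat, a benzamide drug that inhibits class I histone deacetylases. The 4 groups of 4 libraries are vehicle at day 10, entinostat at day 10, vehicle at day 17 and entinostat at day 17, counted from injection of the tumour cells. The sort kept cells labelled Live/Dead-CD45.2+CD8+CD4-, and the labels do not say which CD8 chain was stained. They give no age for the mice and do not say whether a library is 1 tumour or a pool, nor that libraries of the same group are different animals. The p-values below therefore describe the spread among libraries, some of which may be technical.

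Plasmacytoid dendritic cells are known for secreting large amounts of type I interferon when nucleic acids reach their endosomes, where the chaperone UNC93B1 delivers the receptors TLR7 and TLR9. The transcription factor TCF4 (E2-2), together with SPIB, holds their identity, and SIGLECH, BST2 and CCR9 are their usual surface markers in the mouse. Conventional dendritic cells depend on the receptor FLT3 and present antigen to T cells, and those marked by XCR1 and CLEC9A take up dead cells and cross-present to CD8 T cells. Macrophages and granulocytes are marked by lysozyme, the CSF1 receptor, complement C1q and Fc receptors.

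RefSeq promoters (GRCm38.p6, 250 bases before to 50 after a gene's start) were matched for 24 of the 34 genes, among them 11 of the 16 plasmacytoid genes. The promoters of Siglech, Ccr9, Pld4 and Bst2 are shown because these plasmacytoid transcripts stood lower together, and that of the conventional dendritic gene Xcr1 is shown beside them. Capitals mark every match, on either strand, to CAGCTG or CACCTG (E-boxes, the kind of site that TCF4 binds), GAGGAA (an Ets core), GGAA with GAAA 2 bases after it (an Ets and IRF composite) or GAAA with another GAAA 2 bases after it (an IRF site). The Ets core and the composite share the letters GGAA, so 1 stretch can match both.
Siglech (chr7:55767934-55768233, plus strand): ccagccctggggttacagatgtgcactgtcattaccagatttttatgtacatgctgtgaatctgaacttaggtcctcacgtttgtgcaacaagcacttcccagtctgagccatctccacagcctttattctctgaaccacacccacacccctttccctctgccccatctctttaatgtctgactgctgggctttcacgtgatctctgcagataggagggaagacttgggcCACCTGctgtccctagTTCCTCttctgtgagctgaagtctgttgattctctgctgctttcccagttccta
Ccr9 (chr9:123766961-123767260, plus strand): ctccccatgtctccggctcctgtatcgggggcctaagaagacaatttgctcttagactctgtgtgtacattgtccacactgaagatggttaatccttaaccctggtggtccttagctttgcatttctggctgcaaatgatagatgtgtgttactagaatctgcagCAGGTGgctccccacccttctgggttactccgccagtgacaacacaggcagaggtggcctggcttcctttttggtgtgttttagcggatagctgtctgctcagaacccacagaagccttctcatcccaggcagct
Pld4 (chr12:112760405-112760704, plus strand): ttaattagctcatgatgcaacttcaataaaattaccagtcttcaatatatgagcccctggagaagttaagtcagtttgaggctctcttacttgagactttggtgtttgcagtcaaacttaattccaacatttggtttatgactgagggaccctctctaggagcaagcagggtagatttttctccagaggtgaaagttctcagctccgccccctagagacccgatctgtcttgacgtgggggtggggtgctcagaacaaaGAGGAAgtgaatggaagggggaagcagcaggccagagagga
Bst2 (chr8:71537423-71537722, minus strand): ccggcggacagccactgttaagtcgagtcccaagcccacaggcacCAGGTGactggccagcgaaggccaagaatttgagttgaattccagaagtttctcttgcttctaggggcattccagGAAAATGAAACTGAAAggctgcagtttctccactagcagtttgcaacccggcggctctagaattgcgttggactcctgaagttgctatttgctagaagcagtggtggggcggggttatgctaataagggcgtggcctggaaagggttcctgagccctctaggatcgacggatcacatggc
Xcr1 (chr9:123861980-123862279, minus strand): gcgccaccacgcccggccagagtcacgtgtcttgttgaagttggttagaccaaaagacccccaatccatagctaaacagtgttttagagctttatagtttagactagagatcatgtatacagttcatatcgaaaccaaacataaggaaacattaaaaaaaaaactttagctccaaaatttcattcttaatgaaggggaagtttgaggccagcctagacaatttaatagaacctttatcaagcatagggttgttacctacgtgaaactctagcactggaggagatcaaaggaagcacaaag

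A gene was counted as matched if the promoter at any of its listed starts held the match. CACCTG was matched in 6 of the 11 plasmacytoid genes (Bst2, Ccr9, Irf8, Klk1, Siglech and Tlr9) and in 22.6% of 27025 genes. Irf8 and Rnase6 have more than 1 listed start, and their matches given here are not found at every start. GAGGAA was matched in 5 of the 11 (Lair1, Pld4, Rnase6, Siglech and Tlr9) and in 31.3% of all. The IRF site was matched in 2 of the 11, Bst2 and Rnase6, and in 3.99% of all, and in Bst2 a pair of matches overlap. CAGCTG was matched in 1 of the 11 and in 18.3% of all, and the composite in 0 of the 11 and in 3.16% of all. Over all 24 members with a promoter, CACCTG was matched in 8, GAGGAA in 9, CAGCTG in 4, the IRF site in 3 and the composite in 2. Among conventional dendritic genes Xcr1 and Clec9a held no match, but Cd209a held the composite, Itgax CAGCTG and Zbtb46 CACCTG. The plasmacytoid genes Spib and Runx2 held none, so the promoters shown are not a contrast between the cell types. All are matches of letters in a short window, and no binding was measured.

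The libraries held 554593 to 6975904 counts. The shallowest was replicate 3 of entinostat at day 17, where a count of 0 allows up to 4.94 CPM (3 counts), against 0.450 to 1.11 CPM in the other 15 libraries. Such limits cover counting error only, because PCR copies were not marked. The markers of the sorted cell were high throughout: Cd3e ranged from 308 to 614 CPM, Cd8a from 309 to 591, Cd8b1 from 275 to 678 and Ptprc, which encodes CD45, from 911 to 1695. Calls here are genes with a Benjamini-Hochberg adjusted p below 0.05 in edgeR's quasi-likelihood test, and none of these 4 genes was called between entinostat and vehicle. Cd8a stood at -0.34 ± 0.13 log2 at day 10 and 0.24 ± 0.13 at day 17, and Cd8b1 at -0.18 ± 0.17 and 0.44 ± 0.17. A total of 1432 olfactory and vomeronasal receptor genes, whose reads are taken here not to reflect expression, summed to 598 to 6349 CPM per library. Their 95th percentile per library, 1.81 to 14.9 CPM, is called the receptor level below.

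Plasmacytoid transcripts were lower with entinostat than with vehicle at both days. At day 10, 15 of the 16 were called lower, with a median log2 fold change of -1.92 against 0.06 over all genes tested, of which 6.93% were called lower. At day 17, 15 of 16 were called lower, with a median of -2.33 against -0.01 over all genes, of which 13.0% were called lower. The exception at both days was Ly6d. These counts restate the values that selected the genes, and nothing is read from them. In bulk RNA, fewer cells of a type and less RNA per cell cannot be told apart.

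Among the 14 plasmacytoid genes of at least 10 CPM, the entinostat mean was 14.8% to 65.7% of the vehicle mean at day 10 (median 26.1%) and 3.87% to 65.8% at day 17 (median 16.5%). Every entinostat library was below every vehicle library for 13 of the 16 genes at day 10, where 12.4% of all genes tested were so separated, and for 16 of 16 at day 17, where the share was 13.6%. Over all 34 members the numbers were 19 at day 10 and 23 at day 17. The overlapping plasmacytoid genes at day 10 were Tcf4, Klk1 and Ly6d.

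Siglech encodes the sialic acid binding lectin that identifies mouse plasmacytoid cells (GRCm38.p6 chromosome 7, 55768154 to 55779448). Its CPM were 396, 220.1, 459 and 437 in vehicle day 10 replicates 1 to 4 and 77.0, 34.5, 66.9 and 103 in entinostat day 10. At day 17 they were 371, 431, 483 and 501 with vehicle and 46.0, 36.6, 28.2 and 72.6 with entinostat. The groups did not overlap on either day, and vehicle day 10 replicate 2 was the low one of its group. The log2 fold change was -2.42 ± 0.28 (SE) at day 10 and -3.21 ± 0.31 at day 17.

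Ccr9, a chemokine receptor that guides cells to the gut, read 308, 193, 320.4 and 379 CPM with vehicle and 76.2, 54.6, 69.7 and 83.5 with entinostat at day 10. The day 17 values were 304, 332, 378 and 361 with vehicle and 46.6, 44.7, 48.1 and 53.3 with entinostat, where the 4 treated libraries were close to each other. The log2 fold changes were -2.08 ± 0.17 and -2.84 ± 0.18.

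Bst2, the tetherin that holds budding virus at the membrane and carries the IRF matches shown above, was at 131, 102, 132 and 133 CPM with vehicle and 61.4, 60.5, 53.7 and 65.2 with entinostat at day 10. At day 17 the values were 110.4, 136, 147 and 135 and 42.1, 45.2, 43.1 and 41.4. The difference was smaller than for Siglech, -1.05 ± 0.12 and -1.62 ± 0.12 log2, with no overlap on either day. Lair1, an inhibitory receptor for collagen, stood at 198 ± 43.2 CPM (SD, n = 4) with vehicle and 50.7 ± 21.6 with entinostat at day 10, and at 246 ± 22.2 and 53.2 ± 6.25 at day 17. Its entinostat means were 25.7% and 21.6% of the vehicle means.

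Ly6d, a membrane-anchored antigen of early lymphoid and B cells also used to mark a plasmacytoid precursor, did not follow the others at day 10. It had 6.11, 2.07, 15.5 and 1.57 CPM with vehicle and 13.8, 7.72, 19.1 and 58.4 with entinostat at day 10, and 5.87, 3.44, 5.92 and 12.7 and 0, 2.69, 3.32 and 0.678 at day 17, where the 0 of entinostat replicate 1 allows up to 0.959 CPM. Entinostat day 10 replicate 4 alone held 327 of the 669 Ly6d counts of all libraries. The day 10 groups overlapped, and neither day was called by edgeR (1.98 ± 0.79 and -2.28 ± 0.94 log2). DESeq2 called Ly6d higher at day 10 (2.02 log2) and limma-voom called it lower at day 17 (-3.16 log2).

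Of the 4 transcription factors, Spib differed by the most and Runx2 and Irf8 by the least. Tcf4, the E-protein that fixes plasmacytoid identity, read 289, 112, 284 and 356 CPM with vehicle and 47.6, 33.7, 70.3 and 129.9 with entinostat at day 10, where vehicle replicate 2 lay below entinostat replicate 4. At day 17 it read 327, 311, 408 and 369 and 51.1, 54.4, 87.9 and 104 with no overlap, and the log2 fold changes were -1.86 ± 0.36 and -2.28 ± 0.37. Spib, an Ets factor, read 88.6, 45.4, 131 and 143 with vehicle and 14.9, 4.89, 8.63 and 31.99 with entinostat at day 10.

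At day 17 Spib read 179, 159, 186 and 177 with vehicle and 9.65, 7.00, 0 and 10.5 with entinostat. In 6 of the 8 entinostat libraries Spib was at or below the receptor level, so its log2 fold changes of -2.70 ± 0.43 and -4.42 ± 0.50 rest on few reads in the treated groups. Irf8, a factor that both plasmacytoid and conventional dendritic cells need, read 570.1, 295, 545 and 551 CPM with vehicle and 215, 190.5, 207 and 251 with entinostat at day 10. Its day 17 values were 476, 560.1, 630.0 and 586 and 437, 418, 302 and 324.

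The Irf8 groups did not overlap on either day, but the entinostat mean was 44.0% of vehicle at day 10 and 65.8% at day 17. The day 17 value, -0.59 ± 0.17 log2, was no longer called with RLE scaling (-0.49), with library size alone (-0.44), with a minimum count of 50 (-0.43), or without any 1 of vehicle day 17 replicates 2, 3 and 4 and entinostat day 17 replicates 3 and 4. Runx2, which controls the exit of plasmacytoid cells from bone marrow and is also used by T cells, stood at 375 ± 46.2 CPM with vehicle and 247 ± 36.4 with entinostat at day 10. At day 17 it stood at 347 ± 28.5 and 195 ± 37.4.

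Genes of endosomal nucleic acid sensing and breakdown were lower together. Tlr7, the receptor for single-stranded RNA, read 74.2, 37.8, 94.4 and 94.1 CPM with vehicle and 15.99, 12.1, 17.9 and 18.6 with entinostat at day 10. Its day 17 values were 106, 72.8, 111 and 58.6 with vehicle and 17.4, 3.23, 4.98 and 10.2 with entinostat. The groups were apart on both days (-2.21 ± 0.37 and -3.19 ± 0.40 log2), and treated values at day 17 were the more uneven. Entinostat day 17 replicates 2, 3 and 4 lay below the receptor level, so the day 17 value rests on few treated reads.

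Tlr9, the receptor for CpG DNA, was low everywhere: 2.59 to 8.86 CPM with vehicle and 0.257 to 1.86 with entinostat at day 10, and 5.29 to 8.75 and 0 to 1.93 at day 17. It was at or below the receptor level in 11 of 16 libraries. Its day 17 call (-2.28 ± 0.64 log2) was lost without vehicle day 17 replicate 3 (-2.11) or without entinostat day 17 replicate 4 (-2.24). Unc93b1, the chaperone of both receptors, read 310.1, 187, 304 and 328 CPM with vehicle and 103, 118, 89.4 and 142 with entinostat at day 10, and 292, 326, 365 and 288 and 76.5, 91.0, 66.4 and 76.3 at day 17. Its log2 fold changes were -1.32 ± 0.16 and -2.01 ± 0.17, and no groups overlapped.

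Pld4 encodes an endosomal exonuclease that degrades single-stranded nucleic acid. Its CPM were 329, 182, 336 and 355 with vehicle and 72.5, 63.8, 78.9 and 104 with entinostat at day 10, and 301, 344, 377 and 399 and 56.3, 45.8, 36.5 and 56.7 at day 17. No groups overlapped, and the log2 fold changes were -1.91 ± 0.19 and -2.81 ± 0.21. Rnase6, an antimicrobial ribonuclease, stood at 125 ± 35.9 with vehicle and 23.1 ± 5.41 with entinostat at day 10, and at 158 ± 19.0 and 15.5 ± 1.69 at day 17, which is 18.5% and 9.83% of vehicle.

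Cox6a2 and Klk1 are transcripts often listed for plasmacytoid cells without a role in sensing. Cox6a2, a subunit of mitochondrial cytochrome oxidase, read 45.5, 32.1, 63.9 and 73.7 CPM with vehicle and 10.8, 7.72, 5.86 and 10.0 with entinostat at day 10, and 67.7, 61.4, 81.1 and 84.0 and 2.57, 6.46, 0 and 4.41 at day 17. In 7 libraries, all treated, it was at or below the receptor level. Klk1, a kallikrein protease, read 181, 105, 204 and 196 and 59.9, 32.4, 95.3 and 106 at day 10 and 151, 191, 204 and 239 and 41.2, 26.1, 33.2 and 48.5 at day 17. The Klk1 groups overlapped at day 10 only, where vehicle replicate 2 and entinostat replicates 3 and 4 were close. The kallikrein genes are near-identical copies, so reads may have been split among them, and the values of Klk1 and of Klk1b27, named further on, are uncertain.

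**Figure D1:**
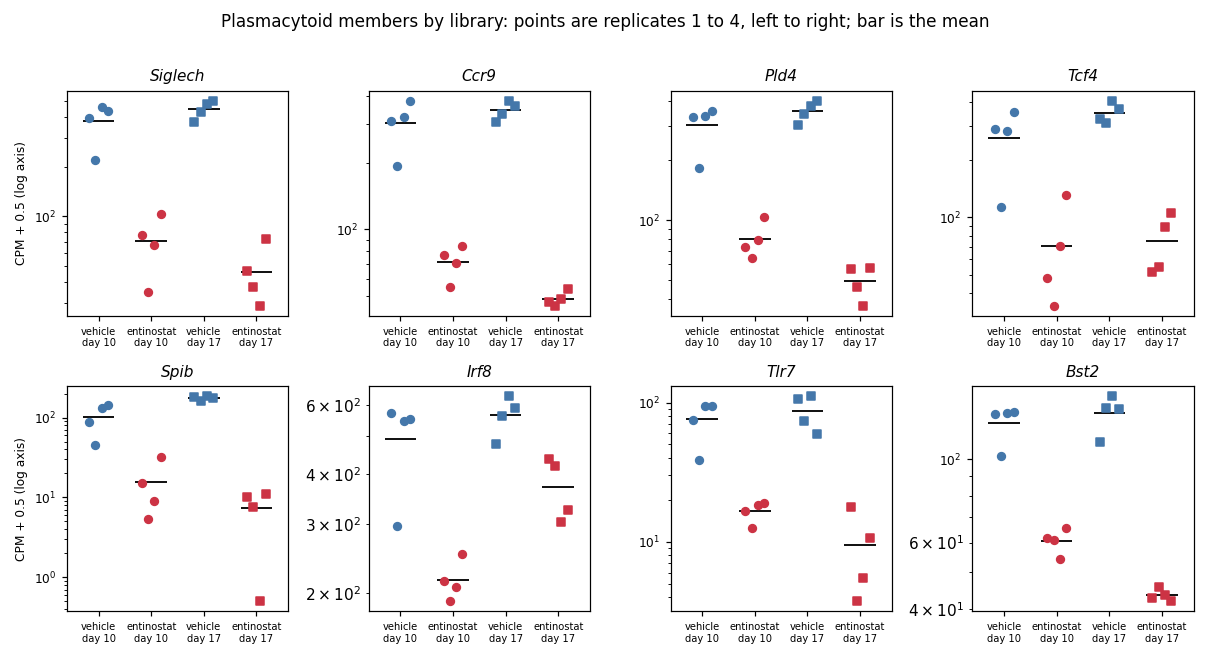
CPM + 0.5 on a log axis for Siglech, Ccr9, Pld4, Tcf4, Spib, Irf8, Tlr7 and Bst2 in each library, grouped by vehicle (blue) or entinostat (red) and day (circles day 10, squares day 17), with a horizontal bar at the group mean. The second point of vehicle day 10 is the lowest of its group in every panel, and Irf8 is the gene whose treated values at day 17 lie nearest to vehicle.

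The shared receptor, adaptors and oxidase subunit were also lower with entinostat on both days. Flt3 encodes the receptor for the growth factor on which all dendritic cells depend. It read 199.5, 77.0, 173 and 224 CPM with vehicle and 23.1, 23.2, 28.4 and 30.4 with entinostat at day 10, and 199, 187, 257 and 156 and 19.6, 4.31, 24.9 and 29.5 at day 17. The groups were well apart on both days, at -2.67 ± 0.36 and -3.45 ± 0.39 log2.

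Tyrobp (DAP12) is the adaptor through which SIGLECH and many myeloid and natural killer receptors signal. Its CPM were 152, 89.9, 138 and 149.6 with vehicle and 36.4, 41.2, 38.5 and 42.9 with entinostat at day 10, and 115, 155, 166 and 157 and 20.6, 14.5, 11.6 and 23.4 at day 17. The treated values at day 17 were all below the treated values at day 10. Its entinostat means were 30.01% and 11.8% of vehicle.

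Fcer1g, the common gamma chain of Fc receptors, read 67.8, 40.7, 59.2 and 70.9 CPM with vehicle and 11.9, 29.9, 25.6 and 28.8 with entinostat at day 10, and 62.1, 67.5, 83.6 and 58.6 and 11.9, 7.81, 9.95 and 11.9 at day 17. Here too every treated library at day 17 was at or below the lowest treated library of day 10. Fcer1g lay below the receptor level in entinostat day 10 replicate 1 and entinostat day 17 replicates 2 and 3. Cybb, the catalytic subunit of the phagocyte NADPH oxidase, stood at 318 ± 103 with vehicle and 63.0 ± 16.3 with entinostat at day 10, and at 364 ± 44.6 and 46.6 ± 9.69 at day 17 (-2.34 ± 0.23 and -2.96 ± 0.25 log2).

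The 5 conventional dendritic members differed less, but 16 other genes of these cells, given further on, had medians of -0.86 and -1.73 log2. Of the 5 members, only Cd209a was called lower at each day by edgeR, and their medians were -0.68 at day 10 and -0.64 at day 17. Leaving out Cd209a, the entinostat means were 44.3% to 96.2% of vehicle at day 10 and 45.2% to 69.2% at day 17. Cd209a, the mouse DC-SIGN lectin, which plasmacytoid cells also carry, read 135, 44.3, 78.9 and 132 CPM with vehicle and 19.7, 13.1, 22.8 and 56.1 with entinostat at day 10. The day 17 values were 132, 136, 183 and 106 and 28.3, 21.0, 33.2 and 32.9, with log2 fold changes of -1.76 ± 0.37 and -2.31 ± 0.40.

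Xcr1, the chemokine receptor of cross-presenting dendritic cells, read 30.6, 22.0, 30.8 and 24.6 CPM with vehicle and 17.5, 16.5, 17.6 and 15.9 with entinostat at day 10, and 41.8, 33.9, 27.5 and 19.2 and 24.8, 22.9, 18.2 and 14.2 at day 17. The day 10 groups did not overlap and the day 17 groups did, and neither day was called by edgeR (-0.68 ± 0.26 and -0.60 ± 0.27 log2). With limma-voom, which called 6746 of 17414 genes at day 10, Xcr1 was called lower there (-0.69 log2). Clec9a, the receptor of the same cells for dead-cell actin, read 14.4, 3.37, 10.6 and 22.2 and 8.18, 4.12, 4.01 and 6.08 at day 10 and 13.7, 15.6, 30.9 and 2.40 and 8.04, 6.46, 6.64 and 7.12 at day 17. It was at or below the receptor level in 8 of 16 libraries, and its groups overlapped on both days.

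Zbtb46, a transcription factor of conventional dendritic cells, read 29.0, 5.96, 16.4 and 23.8 CPM with vehicle and 16.7, 10.8, 22.8 and 22.0 with entinostat at day 10. With means of 18.8 ± 10.0 and 18.1 ± 5.55 its 2 groups were much alike at day 10, and the log2 difference of -0.05 ± 0.37 was smaller than its error. At day 17 it read 33.4, 35.2, 50.2 and 38.8 and 20.9, 19.9, 34.8 and 28.2. Zbtb46 was called lower at day 17 by limma-voom (-0.82 log2), which called 4899 of 17414 genes there, and not by edgeR. Itgax (CD11c), an integrin of dendritic cells that activated T cells can also express, read 112, 52.4, 144 and 151 with vehicle and 77.0, 68.5, 60.4 and 87.8 with entinostat at day 10, and 179, 143, 210.3 and 71.0 and 109, 148, 91.2 and 69.9 at day 17. Itgax was not called on either day, at -0.64 ± 0.31 and -0.52 ± 0.31 log2.

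**Figure D2:**
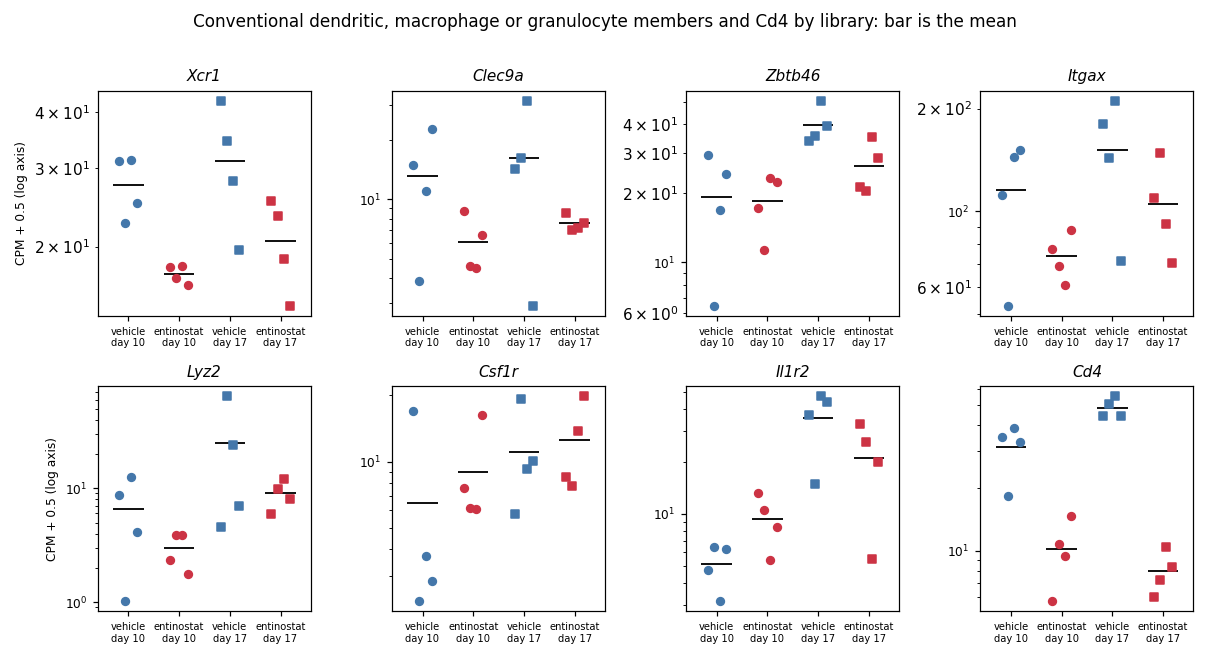
CPM + 0.5 on a log axis for the conventional dendritic genes Xcr1, Clec9a, Zbtb46 and Itgax, the macrophage or granulocyte genes Lyz2, Csf1r and Il1r2, and Cd4, in each library, with colours, symbols and mean bars as for the plasmacytoid genes. Cd4 is the gene of the 8 whose treated and vehicle libraries are apart on both days, whereas Itgax, Zbtb46 and Csf1r overlap on both.

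Of 6 macrophage and granulocyte genes tested, Adgre1 was called higher at day 10 (7.63% of all genes were) and Wfdc17 lower at day 17 (13.0% of all genes were). At day 10, 1 of the 6 was below 0 and the median was 0.75 log2. At day 17, 3 of 6 were below 0 and the median was -0.27. C1qa and C1qb, which encode complement chains of tissue macrophages, reached at most 16 and 5 counts in any library and lay at or below the receptor level in 15 and 16 of the 16. Adgre1 (F4/80) was called higher at day 10, at 0.523 to 1.47 CPM with vehicle and 5.00 to 8.33 with entinostat, but was at or below the receptor level in 15 of 16 libraries.

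Fcgr3, a low-affinity Fc receptor, ranged from 1.04 to 10.4 CPM and was at or below that level in 14 libraries. At day 10 it stood at 1.46 ± 0.55 log2, not called by edgeR and called higher by DESeq2 (1.53). Csf1r, the growth factor receptor of macrophages, ranged from 1.81 to 19.3 CPM with all groups overlapping (0.53 ± 0.65 and 0.17 ± 0.64 log2). Lyz2, lysozyme, read 8.25, 0.518, 12.02 and 3.66 CPM with vehicle and 1.86, 3.35, 3.39 and 1.25 with entinostat at day 10, and 4.06, 63.8, 23.4 and 6.52 and 5.47, 9.42, 11.6 and 7.46 at day 17. Vehicle day 17 replicates 2 and 3 were the highest 2 of all libraries for Lyz2, and the groups overlapped on both days. Every treated Lyz2 value of day 10 lay below the receptor level.

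Wfdc17, a small secreted inhibitor made by activated macrophages, read 8.88, 17.2, 24.4 and 5.14 CPM with vehicle and 1.29, 0.808, 1.66 and 3.73 with entinostat at day 17 and was called lower there (-2.87 ± 0.85 log2). That call was lost without vehicle day 17 replicate 3 (-2.44) or without entinostat day 17 replicate 1 (-2.66), 2 (-2.51) or 3 (-2.80). Every treated Wfdc17 value of day 17, and that of vehicle day 17 replicate 4, lay below the receptor level. At day 10 the Wfdc17 groups overlapped. Il1r2, the decoy receptor for interleukin-1, read 4.28, 5.96, 2.64 and 5.75 with vehicle and 12.6, 10.0, 4.93 and 7.86 with entinostat at day 10, and 36.4, 14.3, 47.1 and 43.6 and 32.5, 25.6, 4.98 and 19.3 at day 17. Its groups overlapped on both days.

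Cd4, the coreceptor that the sort was set against and that mouse plasmacytoid cells can carry, read 34.8, 17.9, 38.4 and 32.9 CPM with vehicle and 5.21, 10.3, 8.94 and 14.1 with entinostat at day 10. Day 17 gave 43.8, 50.03, 54.8 and 43.9 and 5.47, 6.73, 9.95 and 7.80. The groups did not overlap on either day, and the log2 fold changes were -1.66 ± 0.30 and -2.75 ± 0.33. With entinostat, Cd4 lay below the receptor level in every library at day 17 and in replicates 1 and 3 at day 10. The treated values therefore rest on few reads. Of 5 other genes of CD4 T cells (Foxp3, Zbtb7b, Cd40lg, Ikzf2 and Il2ra), 1 was called higher and 0 lower at day 10, with 1 of 5 below 0 and a median of 0.35 log2. At day 17, 1 was called higher and 1 lower, with 3 of 5 below 0 and a median of -0.66. Over all genes, 7.63% were called higher and 6.93% lower at day 10, and 5.29% and 13.0% at day 17. Zbtb7b, the factor that fixes the CD4 lineage, stood at 0.35 ± 0.26 and 0.24 ± 0.26 log2.

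**Figure D3:**
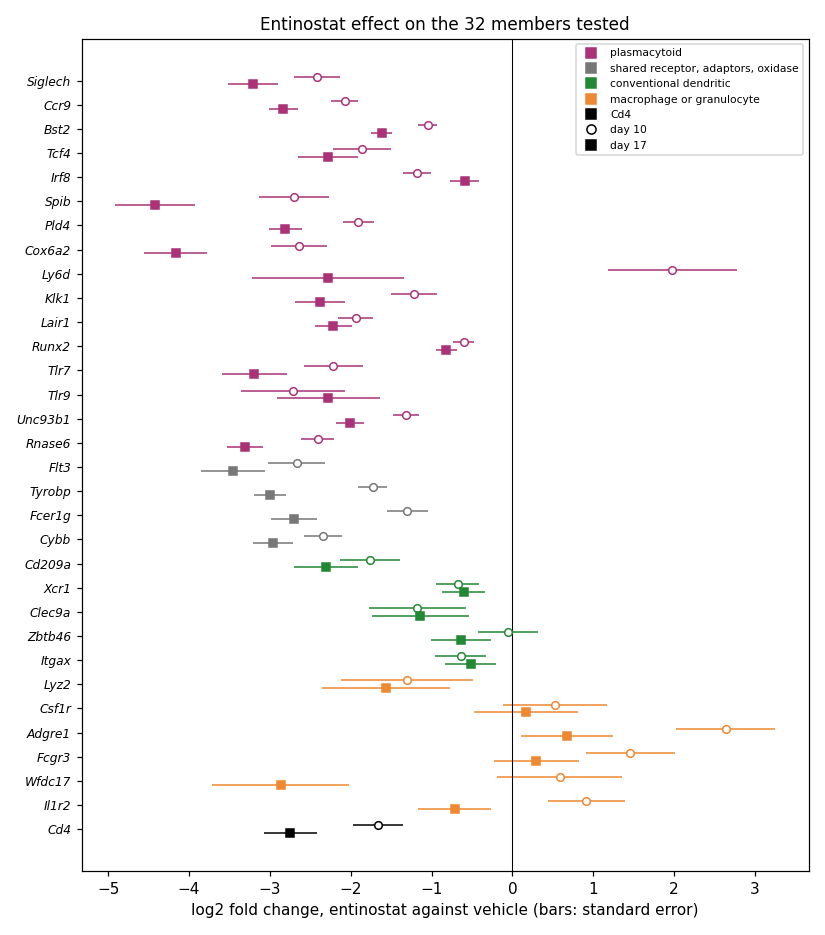
Log2 fold change of entinostat against vehicle for the 32 members tested, shown as open circles (day 10) and filled squares (day 17), with horizontal bars for standard errors and colours for the gene group. Plasmacytoid genes other than Ly6d, and the shared receptor, adaptors and oxidase, lie left of 0 on both days, all but Irf8 and Tlr9 further left at day 17, whereas the macrophage or granulocyte genes lie on either side.

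Changes with time were not what selected the genes, but they use the same libraries as the entinostat comparisons, so the 2 kinds of result are not independent. Under vehicle, 0 of the 16 plasmacytoid genes passed the test between day 10 and day 17 (edgeR; 0 at an unadjusted p under 0.05, 0 by DESeq2 and 1, Spib, by limma-voom). Their median log2 fold change was 0.23, against 0.13 over all genes. The conventional dendritic genes gave 0 of 5 (edgeR; 1 at an unadjusted p under 0.05, and 1, Zbtb46, by DESeq2 and by limma-voom). Over all genes, edgeR called 1.89% higher and 3.63% lower.

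The exception under vehicle was Il1r2, which rose by 2.91 ± 0.49 log2 (SE; edgeR adjusted p = 0.00387), from 4.66 ± 1.54 to 35.3 ± 14.7 CPM, higher in each of the 4 day 17 libraries than in any day 10 library. It was the only member that edgeR called. Spib, Zbtb46 and Cd4 were also higher in every vehicle library of day 17 than in any of day 10, as were 4.78% of all genes, at 0.78 ± 0.39, 1.07 ± 0.37 and 0.63 ± 0.29 log2 (edgeR adjusted p = 0.208, 0.0886 and 0.179). DESeq2 called 4 members, Zbtb46, Adgre1 and Wfdc17 beside Il1r2, and limma-voom 6, these and Spib and Cd4. Both also called more of all genes here: 2116 of 17398 by DESeq2 and 2804 of 17414 by limma-voom, against 961 of 17414 by edgeR. The further calls are to be read against those shares.

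Under entinostat, 7 members fell and 1 rose from day 10 to day 17, where 10.5% of all genes were called lower and 3.26% higher. Tyrobp fell by 1.11 log2 (SE 0.20, edgeR adjusted p = 0.0013) and Fcer1g by 1.22 (SE 0.28, edgeR adjusted p = 0.00696). Both lay below the receptor level in entinostat day 17 replicate 3, and Fcer1g also in replicate 2 and in entinostat day 10 replicate 1. Ly6d, whose day 10 level came mostly from 1 library, stood at -4.13 ± 0.96 (edgeR adjusted p = 0.00738), and Bst2 at -0.49 ± 0.13 (edgeR adjusted p = 0.0138).

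Pld4, Klk1 and Ccr9 fell by 0.67, 0.97 and 0.56 log2 (edgeR adjusted p = 0.0361, 0.0455 and 0.0457). Irf8 went the other way and rose by 0.79 ± 0.18 log2 (edgeR adjusted p = 0.00574), with every day 17 treated library above every day 10 treated library. The Fcer1g call was lost with limma-voom (-0.91, limma adjusted p = 0.0794) and in a fit of the entinostat libraries alone (-1.17, adjusted p by edgeR = 0.0550). The Ccr9, Pld4 and Klk1 calls were lost with RLE scaling, limma-voom and a minimum count of 50, Ccr9 also with DESeq2, Klk1 also in the fit of the entinostat libraries alone, and the Bst2 call with that minimum count or in that fit. With library size alone in place of TMM, the calls of Ccr9, Bst2, Pld4 and Klk1 were lost (edgeR adjusted p = 0.138, 0.0596, 0.105 and 0.100). The Pld4 and Klk1 calls were each lost without entinostat day 10 replicate 3 or 4 or entinostat day 17 replicate 2 or 3, Klk1 also without entinostat day 17 replicate 1. The Ccr9 call was lost without any 1 of vehicle day 10 replicate 3, entinostat day 10 replicates 1, 3 and 4, and entinostat day 17 replicates 1, 2 and 3.

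The difference between the entinostat effects of the days was tested directly, as day 17 minus day 10. Of the plasmacytoid genes, 0 of 16 passed (edgeR; 10 at an unadjusted p under 0.05, 2 by DESeq2 and 0 by limma-voom), with 14 of 16 below 0 and a median of -0.77 log2, against -0.20 over all genes. The widest were Ly6d at -4.26 ± 1.23, Spib at -1.72 ± 0.64 and Cox6a2 at -1.52 ± 0.50, and Irf8 (0.59 ± 0.25) and Tlr9 (0.44 ± 0.86) were the pair above 0. The conventional dendritic genes had a median of 0.03, with 0 of 5 passing (edgeR; 0 at an unadjusted p under 0.05, 0 by DESeq2 and 0 by limma-voom).

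Tyrobp was the member that passed, at -1.27 ± 0.27 log2 (SE; edgeR adjusted p = 0.0455), where 0.253% of all genes were called lower. The call was lost in 19 of 25 alternatives, over which the edgeR, DESeq2 or limma adjusted p ran from 0.00269 to 0.103 and the value from -1.43 to -1.06. Among them were the fit with a replicate block (edgeR adjusted p = 0.0597), and those without any 1 library other than vehicle day 17 replicate 1 or entinostat day 17 replicate 4. Fcer1g, the other adaptor, stood at -1.41 ± 0.37 (edgeR adjusted p = 0.106).

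Within groups, plasmacytoid transcripts varied together. For each gene the deviation of log2(CPM + 0.5) from its group mean was set against the mean deviation of the other plasmacytoid genes of at least 10 CPM, over 16 libraries. Pearson's r had a median of 0.71 over the 14 genes (0.54 to 0.95), and a median of 0.09 over 11059 other genes of that level. Pld4 had r = 0.95 (0.91 without the 2 libraries farthest from the middle), Siglech 0.88 (0.83) and Ccr9 0.78 (0.82). Without those 2 libraries r was lower for Tlr7 (0.54 to 0.30), Bst2 (0.55 to 0.40) and Unc93b1 (0.72 to 0.48). It was also lower for Runx2 (0.70 to 0.48), Irf8 (0.78 to 0.56) and Rnase6 (0.78 to 0.61). For Tcf4 (0.61 to 0.74), Spib, Cox6a2, Klk1 and Lair1 it was higher. The 16 points share library preparation and depth, so these are descriptions with no test.

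The 2 farthest libraries were vehicle day 10 replicate 2 and entinostat day 17 replicate 3. Vehicle day 10 replicate 2 was the lowest of its group in 14 of 14 genes, at 36.3% to 78.3% of the mean of the other 3 (median 53.3%), although its 4227704 counts were the most of its group. Entinostat day 10 replicate 4 was the highest of its group in 13 of 14. Entinostat day 17 replicate 3, the shallowest library, was the lowest in 8 of 14. With both farthest libraries left out, an alternative added after the data were seen, 21 members were called lower at day 10 and 22 at day 17.

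Other members followed this within-group pattern to different degrees. Tyrobp had r = 0.78 (0.53 without the 2 farthest libraries), Cybb 0.68 (0.56) and Cd209a 0.68 (0.78). Zbtb46 had 0.54 (0.55), Itgax 0.47 (0.20), Flt3 0.34 (0.38) and Xcr1 0.04 (-0.25). Cd4 had 0.36 (0.38). Of the macrophage and granulocyte genes, Fcgr3 had 0.72 (0.56), C1qa 0.65 (0.40), Wfdc17 0.64 (0.63) and C1qb 0.64 (0.38), at mean levels of 0.439 to 5.67 CPM, and the other 4 lay between 0.07 and 0.33. Of the T cell genes only Cd3d, Cd8b1, Cd3e and Cd8a were compared in this way. They and Ptprc (CD45) were below 0, with Cd3d at -0.73 (-0.57), Cd8b1 at -0.53 (-0.32), Cd3e at -0.51 (-0.33), Cd8a at -0.46 (-0.14) and Ptprc at -0.43 (-0.32).

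**Figure D4:**
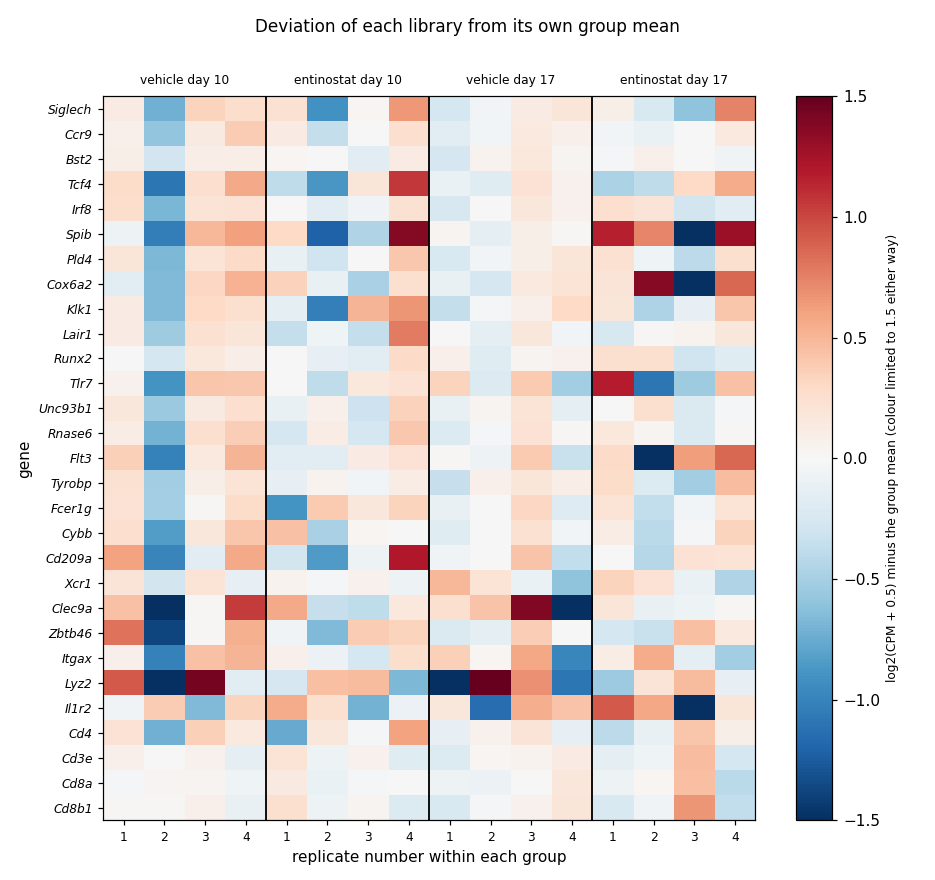
Each cell is 1 gene in 1 library, coloured by log2(CPM + 0.5) minus the mean of its group (blue below, red above, limited to 1.5 either way), with libraries by group and replicate number across and genes down. Vehicle day 10 replicate 2 is blue in every plasmacytoid row and for Flt3, Tyrobp, Fcer1g, Cybb and Cd4, and near white for Cd3e, Cd8a and Cd8b1.

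Genes outside the 34 whose within-group deviations were most like the mean of the plasmacytoid genes were ranked by Pearson's r over the 16 libraries. The first 10 of 11059 were Paqr5 (r = 0.93), Lrrk1, Klk1b27, Emilin1, Ndufb4, B3gnt8, Tbc1d8, Grn, Pafah1b3 and Lamc1 (r = 0.88). Paqr5, a membrane progestin receptor, read 126, 40.7, 104 and 130.0 CPM with vehicle and 12.6, 8.24, 13.6 and 25.0 with entinostat at day 10, and 134, 112, 144 and 106 and 5.47, 5.92, 3.32 and 8.14 at day 17. Grn, progranulin, stood at -1.38 ± 0.19 and -1.82 ± 0.20 log2 between entinostat and vehicle. Likeness within groups did not always go with a lower treated level: Lrrk1 stood at 0.06 ± 0.28 and Lamc1 at 0.54 ± 0.30 at day 17.

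Further genes of the same cells were read from lists set up for comparison with the members, with earlier results of these libraries known. Their counts are to be read against all genes tested, of which 6.93% were called lower and 7.63% higher at day 10, and 13.0% lower and 5.29% higher at day 17. Of 20 other plasmacytoid genes, 16 were called lower at day 10 and 18 at day 17, with medians of -1.29 and -2.35 log2. Atp1b1, a sodium pump subunit, stood at -2.07 ± 0.23 and -3.29 ± 0.26, and Bcl11a, a transcription factor of plasmacytoid and B cells, at -2.01 ± 0.30 and -3.20 ± 0.33. Pltp, a phospholipid transfer protein, stood at -1.21 ± 0.18 and -2.15 ± 0.20. Their summed level was 2392 to 4339 CPM in the vehicle and 1450 to 1997 CPM in the entinostat libraries at day 10. The list includes Cd8a, which was not called.

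Of 19 further genes of endosomal sensing and its signalling, 8 were called lower at day 10 and 11 at day 17. Irf7 and Ctsl are in this list and also among the other plasmacytoid genes. Ctss, a lysosomal protease, stood at -0.93 ± 0.13 and -1.31 ± 0.13 log2, Cnpy3, a Toll-like receptor chaperone, at -0.93 ± 0.18 and -1.28 ± 0.19, and Slc15a4, an endosomal transporter needed for their signalling, at -1.03 ± 0.22 and -1.26 ± 0.23. Irf7, the factor that switches on interferon genes, stood at -0.80 ± 0.15 and -1.71 ± 0.16. The list medians were -0.36 and -0.60, nearer to 0 than those of the plasmacytoid genes.

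Of 12 tested genes of signalling of the TYROBP and FCER1G kind, which include receptors and another adaptor, 6 were called lower at day 10 and 5 at day 17. The list shares Blnk and Cd300c with the other plasmacytoid genes, Trem2 with the further macrophage genes and Zap70 with the T cell genes. Syk, the kinase that both recruit, stood at -2.22 ± 0.24 and -2.66 ± 0.25 log2 and Lyn, a Src family kinase, at -1.69 ± 0.27 and -1.91 ± 0.28. The adaptor Blnk stood at -1.41 ± 0.37 and -2.81 ± 0.41. Zap70, the T cell relative of Syk, was not called, at -0.13 ± 0.15 and 0.12 ± 0.15.

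Among the 6 partners of CYBB in the NADPH oxidase, 4 were called lower at day 10 and 1 at day 17, when 1 was called higher. Ncf1, the organiser subunit p47phox, stood at -1.33 ± 0.25 and -1.995 ± 0.27 log2. Rac1, a GTPase found in most cells, was called lower at day 10 and higher at day 17, at -0.40 ± 0.09 and 0.32 ± 0.09. All 6 were below 0 at day 10 and 3 of 6 at day 17 (medians -0.46 and 0.03 log2).

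Of 16 other conventional dendritic genes, 5 were called lower at day 10 and 10 at day 17 (medians -0.86 and -1.73 log2). Sirpa, an inhibitory receptor of conventional dendritic cells and macrophages that plasmacytoid cells also carry, stood at -2.08 ± 0.41 and -2.84 ± 0.44, and Wdfy4, needed for cross-presentation, at -2.36 ± 0.43 and -2.48 ± 0.43. The list also holds Clec10a, counted among the plasmacytoid genes too, and Tlr3, counted among the endosomal sensing genes. Of 17 tested further macrophage and monocyte genes, 3 were called lower and 1 higher at day 10, and 5 lower and 2 higher at day 17. Their medians were -0.03 and -0.42 log2, with 9 of 17 below 0 on each day. The 1 of 17 called higher at day 10 is near the 7.63% of all genes. Spi1, the factor PU.1, stood at -2.51 ± 0.51 and -4.85 ± 0.62 and Cd68, a lysosomal protein, at -1.65 ± 0.23 and -2.57 ± 0.25, whereas Arg1, arginase, was called higher at day 17 (3.21 ± 0.69).

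Markers of other cells that a CD8 sort could hold were read beside these results and against the same shares of all genes, 6.93% lower and 7.63% higher at day 10 and 13.0% and 5.29% at day 17. Of 9 tested B cell genes, 2 were called lower on both days, Fcrla (-2.69 ± 0.36 and -3.29 ± 0.38 log2) and Cd79b (-1.27 ± 0.39 and -2.16 ± 0.42), and 2 others higher at day 10. The B cell list as a whole had medians of 1.25 log2 at day 10 and 0.58 at day 17, with 4 and 3 of 9 below 0. Its summed level was not higher with entinostat: 73.6 to 161 CPM with vehicle and 61.3 to 129 with entinostat at day 10. The day 17 sums were 148 to 192 and 73.2 to 126 CPM. Of 7 tested neutrophil genes, 4 were called higher at day 10, when S100a9 read 0.611, 0.259, 0.293 and 1.57 CPM with vehicle and 2.60, 19.0, 2.78 and 48.6 with entinostat, and 1, Il1b, was called lower at day 17. Of 13 T cell genes, 1, Thy1, was called lower at day 10, a share near that of all genes.

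The summed level of the 13 T cell genes was 3897 to 4595 CPM with vehicle and 3644 to 4182 with entinostat at day 10, and 3283 to 3600 and 3231 to 4814 at day 17. Of 6 tested natural killer genes, 0 were called at day 10 and 3 were called higher at day 17, against 5.29% of all genes. Of 4 tested epithelial genes, 1, Cdh1, was called lower on both days. Of 3 erythroid genes measured, 1 could be tested and was not called.

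The receptor reads differed between the groups, at 638 to 2033 CPM with vehicle and 598 to 5615 with entinostat at day 10, and 668 to 5156 and 3450 to 6349 at day 17. Between the 2 day 10 libraries of low receptor reads, vehicle replicate 2 (638 CPM) and entinostat replicate 4 (598 CPM), Siglech read 220.1 and 103, Pld4 182 and 104, and Rnase6 73.1 and 30.2. Of the 16 plasmacytoid genes, 13 were lower in the entinostat library of the pair and 3 (Tcf4, Klk1 and Ly6d) higher, and its level had a median of 63.0% of that in the vehicle library. Tcf4 read 112 and 129.9, Klk1 was at 100.5% of the vehicle library and Runx2 at 96.2%. These 2 are also the lowest vehicle and the highest entinostat library in most plasmacytoid genes, and the part of receptor reads in the differences was not tested.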

How the data were processed

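RNA of sorted cells was made into cDNA with SMART-seq v4 and into libraries with Nextera XT, per the labels' protocols. The deposited values are whole-number exon counts per gene, named by Entrez identifier and symbol and not scaled between libraries. STAR and mm10 are named in the submitters' processing notes, and which program counted the reads, and whether duplicates were removed, is not given in the sources used here. The method keeps neither strand nor single molecules, so reads of overlapping genes cannot be separated. The labels gave each library its group, day and replicate number.

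Tests used edgeR 4.0.16 in R 4.3.3 (quasi-likelihood test on the counts, TMM, filterByExpr at a minimum count of 10, all 16 libraries, 4 group means, 12 residual degrees of freedom, biological coefficient of variation 0.38 in common), with Benjamini-Hochberg adjustment over the 17414 genes tested in each comparison at 0.05. The script was tested on simulated data. CPM use TMM-scaled library sizes, and deviations use log2(CPM + 0.5). SE is the standard error of a log2 fold change and SD the standard deviation over 4 libraries. Positions come from a GRCm38.p6 table that matched 23968 of the 24028 genes. The members and lists were chosen with earlier results of these data known.

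All 34 members are accounted for, and those averaging at least 10 CPM are given by library or by group. From each comparison list up to 4 genes of smallest p could be named, with the markers Cd8a, Cd8b1, Cd3e and Ptprc and the 10 genes most like the plasmacytoid members. Zap70 and Blnk were named after their values were seen. Cd3d was also named outside these rules.

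Alternatives were RLE scaling, library size alone, DESeq2 1.42.0, limma-voom 3.58.1 with quality weights, no filter, a minimum count of 50, only the groups compared, a replicate block across groups or within each day, and leaving out each library. Between vehicle and entinostat at day 10 the deviations of equally numbered libraries correlated at 0.259, 0.260, 0.240 and 0.270 (9772 genes of at least 16 CPM), so the numbers were taken to pair them there, from the data and not the labels. Over all 17414 genes tested those correlations were 0.180, 0.033, 0.114 and 0.057. In no other comparison did all 4 exceed 0.1. Every pair of libraries within a group differed by more than sampling noise, the closest at a chi-square of 2.96 for each degree of freedom.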

Additional observations from a re-analysis of the deposited data

Results flagged for a closer look

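In vehicle day 10, replicate 2 stood far below the other 3 libraries, by a test on the gap to its nearest neighbour, for 3 plasmacytoid genes: Bst2 at 102 CPM (others 131 to 133), Irf8 at 295 CPM (545 to 570.1) and Pld4 at 182 CPM (329 to 355). In vehicle day 17, replicate 2 stood below the others for Runx2, at 305 CPM (356 to 366). The gap was checked in 104 groups of 4 libraries, 4 exceeded the 95% critical value of Dixon's test, and chance gives about 1 in 20. The genes share libraries, so these checks are not independent. The entinostat effect on Tyrobp was larger at day 17 than at day 10 by a test of the difference itself, -1.27 log2 (edgeR adjusted p = 0.0455), a call that did not hold in 19 of 25 alternatives.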

How the results depend on the processing

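Members called lower numbered 21 at day 10 and 22 at day 17, and 20 to 22 and 19 to 24 over 26 alternatives each (21 in each of the 16 fits that left out a library at day 10, and 19 to 22 at day 17). No called log2 fold change of a member reversed its sign. Plasmacytoid genes called lower ran from 14 to 15 and 13 to 16, and conventional dendritic or macrophage genes from 1 to 2 and 1 to 3. The replicate block left 21 and 22, and 1 and 8 for time under vehicle and entinostat. For time under entinostat (8 members called) the count was 5 with RLE scaling, 4 with library size alone, 4 with limma-voom, 4 with a minimum count of 50 and 5 with only the groups compared, and 5 to 10 when 1 library was left out, the lowest without entinostat day 10 replicate 4. For time under vehicle (1 called) it was 4 with DESeq2, 6 with limma-voom and 1 to 3 when 1 library was left out, 2 leaving out vehicle day 10 replicate 4 and 3 leaving out vehicle day 17 replicate 1. For the difference of effects (1 called) it was 4 with DESeq2, 0 with limma-voom, 0 with no filter, 0 with the replicate block, 0 with the replicate block within each day, 0 without vehicle day 10 replicate 2 and entinostat day 17 replicate 3 together, and 0 to 1 when 1 library was left out. Over all genes, time under vehicle gave 961 calls with edgeR, 2116 with DESeq2 and 2804 with limma-voom. The difference of effects gave 82, 563 and 244. The cause of the shifts in members called was not tested. Library size alone moved the median of all genes at day 10 from 0.06 to 0.22 log2. Depth limits the treated values of Spib, Cox6a2 and Tlr7 in entinostat day 17 replicate 3.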

Other observations

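Type I interferon genes, the best known product of plasmacytoid cells, were read for 15 Ifna and Ifnb1 rows. Their summed level was 1.47 to 2.88 CPM with vehicle and 3.75 to 34.8 CPM with entinostat at day 10, and 2.11 to 22.0 and 18.8 to 28.2 CPM at day 17. Ifnb1 had 0 to 2 counts in the vehicle day 10 libraries and 19, 10, 30 and 0 counts in the entinostat day 10 libraries 1 to 4, of which replicate 4 held 598 CPM of olfactory and vomeronasal receptor reads and the other 3 held 3368 to 5615 CPM. In vehicle day 17, replicate 1, with 668 CPM of receptor reads, had 1 Ifnb1 count, and the other 3, with 3047 to 5156 CPM, had 11 to 27. The part of these reads in the interferon values was not tested.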
